A study of Homo sapiens and Mus musculus with 12 samples.

Results

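The 3 libraries described here are the control organoids of the mouse experiment, out of 12 libraries in the series. They were chosen by label alone: mouse cortical organoids grown from 46C embryonic stem cells, with genotype EV ctrl stable cell line, harvested on day 6 of differentiation, in columns 1 to 3 of the mouse count table. The 46C line is a mouse embryonic stem cell line that carries a green fluorescent protein reporter in the Sox1 gene, and EV stands for the empty vector that serves as control for a vector with a human NOTCH2NL cDNA. The stem cells were kept on gelatin with serum and LIF, a cytokine that holds mouse stem cells in the naive state, and were then grown as floating aggregates. Each library came from a pool of 16 organoids, from polyadenylated RNA, and all 3 pools share the same line, vector and day. Neither separate cultures for the pools nor the way the stable line was picked is stated in the labels, so the spread between pools may in part be technical. There is no second group in this description, so levels are given with their spread and no difference is tested. In the authors' deposited table NOTCH2NL is listed at 0 in all 3 pools.

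Mouse embryonic stem cells correspond to the naive epiblast of the early embryo. When LIF and serum are withdrawn they pass through a primed epiblast state and then become neuroectoderm unless BMP or WNT signals turn them to surface ectoderm, neural crest or mesoderm. Sox1 and Pax6 mark the neural plate, Krt8 and Krt18 encode the keratin pair of simple epithelia, and the roof plate is the dorsal midline of the neural tube, which secretes WNT and BMP proteins. Trophoblast is the extraembryonic lineage that builds the placenta and separates from the epiblast before implantation.

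In these day 6 pools, genes of pluripotency, neuroectoderm, simple epithelium and trophoblast were present side by side. The pluripotency factor Pou5f1 had a mean of 121 ± 11.8 CPM (SD, n = 3 pools), the neural factor Pax6 102 ± 2.45, the epithelial keratin gene Krt8 587 ± 131 and the placental gene Tpbpa 139 ± 11.7. Pluripotency and general neural genes differed little between pools, as did most genes. Of all genes with a mean of at least 10 CPM, 3.03% differed by at least 1.5-fold between the highest and lowest pool. Many epithelial and placental genes were highest in pool 1. Some dorsal midline genes, picked with their values in view, were lowest there, Wnt1 among them. A lower level in pool 1 was not particular to dorsal genes, and the placental families were also listed after their values had been seen.

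Gene counts came to 18436984 in pool 1, 20960391 in pool 2 and 20488836 in pool 3. Levels are given as CPM, the gene's counts scaled to a common library size, after scaling by TMM factors, which lay between 0.992 and 1.01, and a gene is called present when it reached 1 CPM in every pool. A count of 0 allows a level of up to 0.143 to 0.163 CPM in 1 pool, from a floor of 3 counts that covers counting error only. Since CPM is not corrected for transcript length, an order of CPM between genes is an order of counts, not of molecules. The largest ratio within a list is taken over members with a mean of at least 10 CPM. All lists were chosen with earlier results of these data known, so counts of their members describe these pools and are no independent evidence. Pools 1 and 3 lay farthest apart, with pool 2 between them. Over 2615 genes with a mean of at least 100 CPM, the log2 ratio between pools had an SD of 0.137 for pools 1 and 2, 0.206 for pools 1 and 3 and 0.124 for pools 2 and 3, against 0.035 to 0.0361 from counting alone. The share of alignments that fell in several places, which no gene count holds, was 33.7% in pool 1, 29.2% in pool 2 and 26.6% in pool 3. Whether that share bears on the differences between pools given here was not tested.

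Of 47729 gene identifiers, 28179 had a count in some pool and 14471 were present. Each count of present list members below is to be read beside this share. The lists were picked by hand, so presence of most or all members is a description and no result about a list. The counts were spread over many genes. The 10549 genes with a mean of at least 10 CPM held 98.0% of the counts in each pool, and the 64 genes of the highest class, each with a mean over 1000 CPM, held 11.1%, 11.5% and 11.4% in pools 1, 2 and 3. The 20 genes with the most counts took 5.90 ± 0.193% (SD, n = 3 pools).

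The 20 leading genes were mainly those of translation, glycolysis, the cytoskeleton and the mitochondrial genome. Eef1a1, the elongation factor that brings aminoacyl-tRNA to the ribosome, came first with 7224, 8880 and 9068 CPM in pools 1, 2 and 3. The translocation factor Eef2 stood at 3555, 3773 and 4205 CPM, and the cytosolic chaperone Hsp90ab1 at 3994, 4337 and 4384 CPM. All 3 were lowest in pool 1. The ribosomal protein genes Rpl4, Rpl8, Rpl32, Rps14 and Rpsa and the ribosome-bound scaffold Rack1 were also in the group, and the 83 cytosolic ribosomal protein genes together held 5.43%, 5.86% and 6.21% of the counts. Tubb5, a beta-tubulin of dividing and immature neural cells, stood at 3738, 3734 and 3778 CPM and varied little. Actb, the cytoskeletal actin, stood at 1779, 1756 and 1886 CPM. Nedd4, a ubiquitin ligase first found in neural precursor cells, reached 1859, 1989 and 1926 CPM.

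Glycolytic enzymes supplied 5 of the 20 leading genes. Gapdh stood at 2783, 3530 and 4022 CPM, Pkm at 2429, 2754 and 3211 CPM and Aldoa at 2041, 1989 and 2051 CPM. Ldha, which turns pyruvate into lactate, stood at 1567, 1883 and 2003 CPM, and the enolase Eno1 at 1306, 1753 and 2151 CPM. Aldoa was level over the pools, while the other 4 were lowest in pool 1 and highest in pool 3. In the wider list of 25 glycolysis and hypoxia genes every member was present, and the summed level was 15523, 17732 and 19619 CPM. Eno1 (1.65-fold) and the phosphoglycerate mutase Pgam1 (1.59-fold, 180.1, 249 and 286 CPM) were the 2 members, of 23 with a mean of at least 10 CPM, whose highest pool was at least 1.5 times the lowest, against 3.03% of all genes with such a mean. The glucose transporters Slc2a1 (786, 720.1 and 759 CPM) and Slc2a3 (883, 984 and 959 CPM) differed less between pools.

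**Figure D1:**
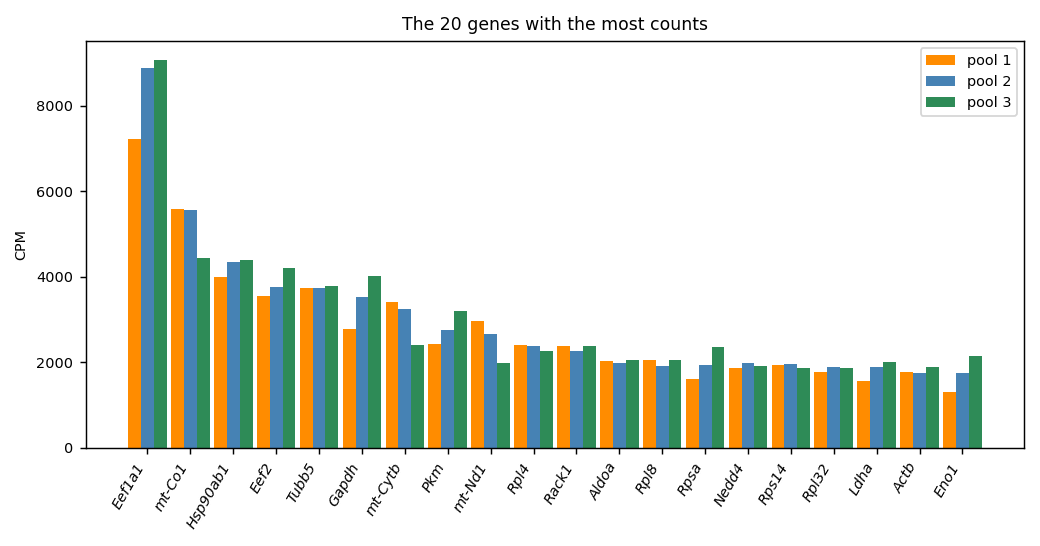
CPM (y axis, from 0) of the 20 genes with the most counts (x axis), with 1 bar for each pool. Eef1a1, Gapdh, Pkm and Eno1 were lowest in pool 1, while the mitochondrially encoded mt-Co1, mt-Cytb and mt-Nd1 were lowest in pool 3.

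The 13 protein genes of the mitochondrial genome held 1.64%, 1.56% and 1.16% of the counts (1.45 ± 0.259%, SD, n = 3 pools). The cytochrome oxidase subunit mt-Co1 stood at 5593, 5572 and 4436 CPM, mt-Cytb at 3408, 3258 and 2415 CPM and mt-Nd1 at 2962, 2657 and 1989 CPM. Pool 3 was the lowest for each of them. mt-Nd5 had the largest ratio of the list (1.65-fold, 1577, 1602 and 973 CPM). Of the list 6 genes were not present, among them mt-Co2 (0.485, 0.476 and 0.541 CPM) and mt-Co3 (0.539, 0.666 and 0.443 CPM), although they lie on the same genome as mt-Co1. Reads that aligned to several places are in no gene count, and whether this bears on these 6 genes was not tested, so their level is uncertain.

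The genes of naive pluripotency, the state in which 46C cells are maintained, were all present on day 6. These were 18 of 18, against 14471 of all 28179 genes with a count, with a summed level of 629, 663 and 648 CPM. Nanog, a homeobox factor of the naive state, stood at 72.8, 75.9 and 67.1 CPM, the nuclear receptor Esrrb at 70.1, 74.7 and 78 CPM and the zinc finger gene Zfp42 (Rex1) at 80.7, 87.8 and 81.5 CPM. These 3 factors differed little between pools. Tdh, the threonine dehydrogenase on which mouse stem cells depend, stood at 109, 116 and 124 CPM, and Dppa5a, an RNA-binding protein of pluripotent cells, at 72, 77.2 and 73.7 CPM. Other naive factors were lower in CPM: Tfcp2l1 at 31.7, 31.5 and 30.1, Klf2 at 25.2, 23.7 and 26.1, Nr5a2 at 19, 20.0 and 16.6, Nr0b1 at 10.7, 11.9 and 12.4 and Tbx3 at 10.7, 8.95 and 11.1. The lowest 4 were Klf4 (9.81, 9.28 and 9.5 CPM), Tcl1 (6.96, 8.04 and 7.82 CPM), Klf5 (5.98, 5.76 and 5.27 CPM) and Prdm14 (4.85, 4.66 and 5.46 CPM), each of which was still present. Dppa3, a gene of naive and germ cells, had the largest ratio of the list at 1.34-fold (27.8, 32.7 and 24.5 CPM). In bulk RNA a gene at a few CPM may be low in all cells or high in a small share of them, and fewer cells of a type cannot be told apart from less RNA per cell.

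Genes shared by naive and primed pluripotency were present in 16 of 16 cases, with a summed level of 1444, 1501 and 1540 CPM. The POU factor Pou5f1 (Oct4), required for pluripotency in the epiblast, stood at 109, 122 and 132 CPM and was lowest in pool 1. Sox2, which acts in pluripotent cells and in neural progenitors, stood at 220.0, 219.9 and 224 CPM and Sall4 at 61.6, 66.4 and 73.1 CPM. The RNA-binding proteins Lin28a (151, 167 and 180.3 CPM) and Lin28b (87.4, 86.5 and 82.1 CPM), which block let-7 maturation, and Trim71 (102, 99.1 and 102 CPM) were all at similar levels in the 3 pools. Trp53, which has the highest counts of this list, stood at 277, 290.0 and 295 CPM and Mybl2 at 123, 132 and 146 CPM. Further members with a role in pluripotent cells were Utf1 (48.7, 50.9 and 52.7 CPM), Zscan10 (29, 28.7 and 27.9 CPM), Dppa4 (27, 27 and 28.6 CPM) and the Nodal co-receptor Tdgf1 (31.3, 37.9 and 34.4 CPM).

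In the primed epiblast list 18 of 21 genes were present and 3 were not. Fgf5, the growth factor whose transcript defines the early primed epiblast, had 5, 2 and 1 counts in pools 1, 2 and 3, at most 0.27 CPM. The Nodal inhibitors Lefty1 (2, 1 and 3 counts) and Lefty2 (1, 0 and 0 counts) were also absent by this rule. Nodal itself stood at 7.28, 9.38 and 8.76 CPM, and the forkhead factor Foxd3 at 2.91, 2.9 and 4.53 CPM. By contrast, the homeobox factor Otx2, active in the epiblast and the anterior neural plate, stood at 132, 164 and 158 CPM, Zic2 at 152, 202 and 209 CPM, Zic5 at 30.5, 42.4 and 45.1 CPM and Sall2 at 206, 213 and 224 CPM. The ETS factors Etv4 (13.5, 14.4 and 11.8 CPM) and Etv5 (69.8, 76.2 and 78.9 CPM), targets of FGF signalling, were present as well. The de novo DNA methyltransferases Dnmt3a (171, 163 and 161 CPM) and Dnmt3b (80.4, 75.8 and 73.5 CPM) were slightly higher in pool 1 than in the others. Pou3f1, an early neural and epiblast POU factor, stood at 11.8, 11.4 and 13.8 CPM and Sox4 at 196, 198 and 202 CPM. Fgf15, a growth factor of the neural tube, had the largest ratio of the list at 1.95-fold (10.3, 16.3 and 20.1 CPM), with pool 1 the lowest. Of the members present, Otx2, Sox3, Zic2 and Sall2 are known from neural tissue as well.

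Neural plate and neuroectoderm genes were present in 20 of 20 cases, and 10 of them exceeded a mean of 100 CPM. Their summed level was 2465, 2604 and 2724 CPM, lowest in pool 1. Sox1, the earliest neuroectoderm-specific factor, stood at 31.1, 26.9 and 32.7 CPM; in this line its locus carries the reporter. Pax6, the paired-box factor of neural progenitors, stood at 99.7, 101 and 104 CPM. Neither separated the pools. Sox11 had 358, 383 and 381 CPM, the RNA-binding protein Msi1 294, 317 and 342 CPM, N-cadherin (Cdh2), which replaces E-cadherin in the neural plate, 195, 215 and 229.9 CPM, and the intermediate filament Nes 207, 205 and 229.6 CPM. Zic1, a zinc finger factor of the dorsal neural tube, was lowest in pool 1 at 149.7, 191 and 203 CPM. Radial glia genes were present too, with Fabp7 at 82.9, 77.6 and 72 CPM, Hes5 at 61.7, 57.5 and 70.3 CPM and Prom1 at 128, 139.9 and 124 CPM. The remaining factors were Sox3 (41, 36.1 and 49.3 CPM, the largest ratio of the list at 1.36-fold), Sox21 (65.9, 66.8 and 77.4 CPM), Zfp521 (81.3, 91.6 and 94.3 CPM), Pou3f2 (32.3, 39.6 and 40.5 CPM), Pou3f3 (139, 148 and 160.3 CPM) and Hes3 (1.83, 1.9 and 1.97 CPM).

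Regional genes of the neural tube, the markers against which the label cortical can be read, were taken from an anterior and a posterior list. Of 17 anterior forebrain and eye field genes 14 were present, against 11 of 18 midbrain, hindbrain and spinal cord genes. Of all 28179 genes with a count 14471 were present, and both lists were picked by hand, so these counts alone give no regional identity. Emx2, a factor of the dorsal telencephalon and hem, stood at 123, 124 and 121 CPM, Dmrta2 at 119, 109 and 113 CPM, Otx1 at 94.7, 122 and 139.7 CPM and Lhx2 at 79.4, 71 and 73.1 CPM. Fezf1 had 48.7, 48.6 and 54.6 CPM, Fezf2 61.5, 59.4 and 59.8 CPM, Emx1 14.5, 14 and 14.5 CPM, Sp8 25.4, 29.5 and 30.7 CPM, Hesx1 1.78, 1.05 and 1.72 CPM, Lhx5 38.3, 38.7 and 44.7 CPM, Six3 18, 15.2 and 17.5 CPM and the eye field factor Rax 5.98, 6.38 and 7.87 CPM. Otx1 had the largest ratio of the list (1.48-fold) and was lowest in pool 1, while Emx2, Emx1 and Fezf2 were nearly equal in the 3 pools. Six6, Nkx2-1 and Vax1, of ventral forebrain and eye, were not present. In the posterior list only Wnt1 and Irx3 (70.3, 48.3 and 54.4 CPM) reached a mean of 10 CPM. En1 (1.46, 1.62 and 2.31 CPM), En2 (1.4, 2.38 and 1.87 CPM), Gbx2 (2.86, 3.71 and 3.1 CPM) and Pax2 (2.21, 2.43 and 1.97 CPM), factors of the midbrain and its boundary with the hindbrain, were present at low levels. So were Pax8 (2.86, 2.38 and 2.81 CPM), Hoxa2 (1.94, 3.95 and 2.66 CPM), Hoxb2 (1.89, 1.95 and 2.61 CPM) and Nkx6-1 (1.83, 1.95 and 2.07 CPM), while Pax5, Egr2, Hoxb1, Hoxb4, Cdx1 and Cdx4 were among those not present.

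Surface ectoderm and simple epithelium genes were present in 21 of 24 cases, beside the neural genes. Krt8 stood at 736, 531 and 494 CPM, Krt18 at 534, 348 and 326 CPM, Krt19 at 505, 315 and 281 CPM and Krt7 at 186, 111 and 108 CPM. Pool 1 was the highest for all 4, by 1.49-fold to 1.8-fold over the lowest pool. The keratins of stratified epithelium were not present, with Krt5 at 0.216, 0.0952 and 0.148 CPM and Krt14 at 0.162, 0.428 and 0.0984 CPM, nor was their regulator Trp63 (0.647, 0.0952 and 0.492 CPM). By description the table holds 38 keratin genes, of which 5 were present. The AP-2 factors Tfap2c (196, 169 and 174 CPM) and Tfap2a (42.4, 50.3 and 54.1 CPM) and the epithelial adhesion genes Cdh1 (69.4, 57.7 and 56 CPM) and Epcam (54.9, 45.3 and 44.1 CPM) were well above the threshold. Gata2 stood at 86.9, 59.5 and 54.7 CPM, Gata3 at 31.5, 18.8 and 16.8 CPM, Dlx3 at 37.2, 24.2 and 24.9 CPM and Grhl2 at 14.4, 9.33 and 9.2 CPM, each highest in pool 1. Grhl3 (10.2, 9.95 and 9.15 CPM) and Dlx5 (6.04, 5.47 and 6.64 CPM) differed less. Msx1 (48.1, 66.5 and 78.8 CPM) and Msx2 (31.7, 36.9 and 38 CPM), which the dorsal neural tube also uses, were lowest there. Bmp4, the signal that turns ectoderm away from a neural fate, was level at 38.2, 37 and 35 CPM.

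**Figure D2:**
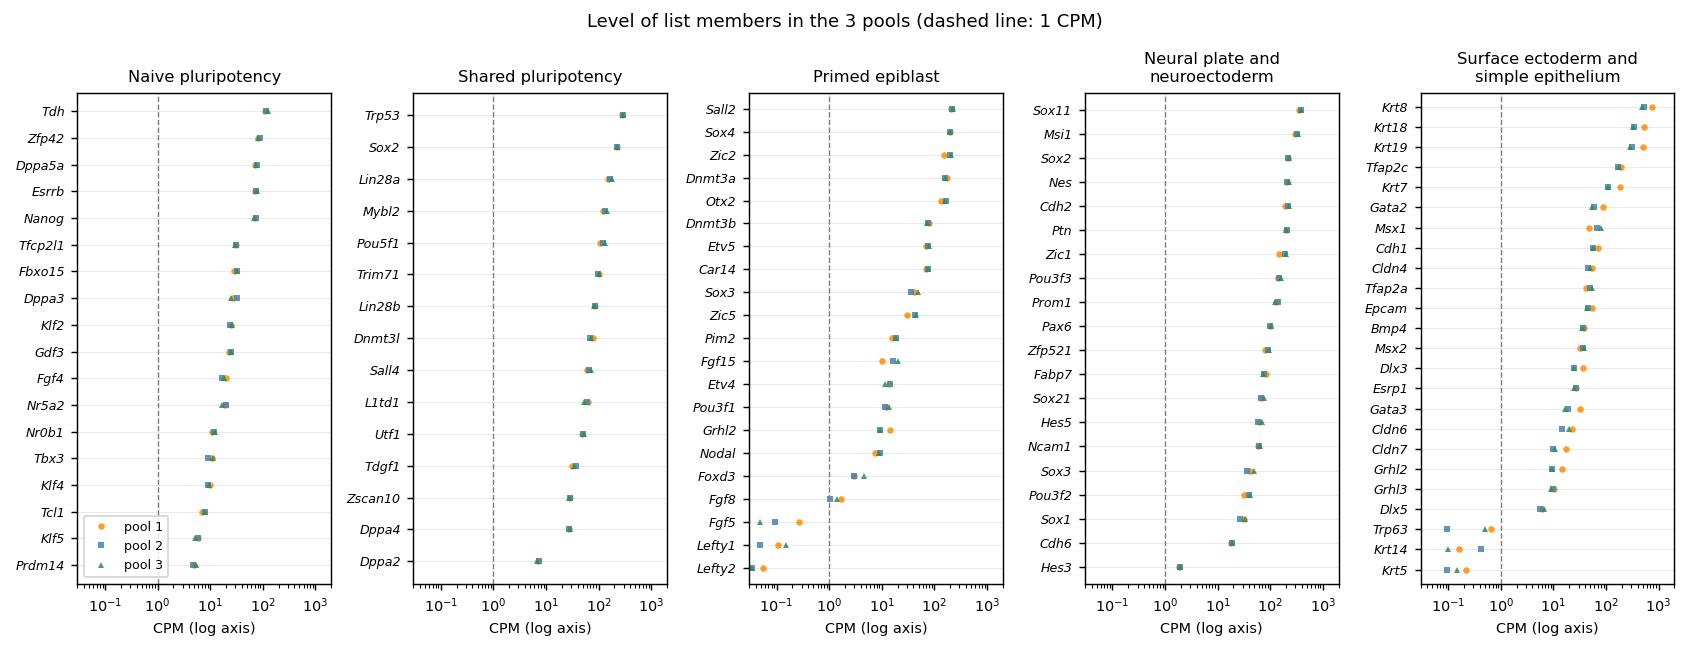
CPM (x axis, log scale) of members of 5 gene lists (y axis, ordered by mean) in the 3 pools, 1 marker for each pool, with the presence threshold of 1 CPM dashed and values of 0 drawn at the left edge. All naive, shared pluripotency and neural plate genes drawn lie right of the line in every pool, while Fgf5, Lefty1, Lefty2, Krt5, Krt14 and Trp63 lie left of it.

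Variation between pools was described for the 10549 genes with a mean of at least 10 CPM. A gene is called varying when its highest pool was at least 1.5 times its lowest, which held for 320 genes (3.03%). Over all 10549 genes, varying or not, pool 1 was the highest in 34.8% and the lowest in 39.7%. Pool 1 was the highest in 189 of the 320 (1.79% of the 10549) and the lowest in 127 (1.2%). A ratio of at least 2 was reached by 18 genes (0.171%). Without pool 1 only 5 genes varied, without pool 3 there were 150, and without pool 2 there were 288. Pool 1 was the pool farthest from the gene's mean in most of the 320, as the highest in 171 and as the lowest in 111. Pool 2 lay between pools 1 and 3 for 268 of the 320 (83.8%), against 51.1% of all 10549 genes. Over the 15812 genes kept by edgeR's filter on low counts the common biological coefficient of variation was 8.96%, and it was 6.34% without pool 1. Pool 1 and the mean of the other pools were close at the median gene (log2 difference -0.01, quartiles -0.12 and 0.10).

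None of the 14 naive, 15 shared pluripotency and 19 neural plate genes with a mean of at least 10 CPM varied, against the 3.03% of all genes, a share at which lists of this size hold few such genes or none. Below that fold, 17 of the 19 neural plate genes were lower in pool 1 than in the mean of the other pools. So were 18 of 20 Notch pathway, 15 of 18 proneural and neuron and 19 of 23 glycolysis and hypoxia genes with such a mean. Higher in pool 1 were 16 of 19 surface ectoderm genes. The skew was thus not particular to neural plate genes. Pool 1 was the lowest of the 3 pools in 12 of the 19, against 39.7% of all genes. In the surface ectoderm list 10 of 19 varied, 9 of them highest in pool 1 and Msx1 lowest there. Gata3 had the largest ratio of that list at 1.87-fold. In the primed epiblast list 2 of 15 varied, Fgf15 (lowest in pool 1) and Grhl2 (highest in pool 1), and in the anterior forebrain list 0 of 11.

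Trophoblast genes were among those with the largest spread between pools. Of the 9 genes in the trophoblast list all were present, and 7 had a mean of at least 10 CPM. In all 7 pool 1 was the highest, against 34.8% of all genes, and 4 of the 7 varied, against 3.03%: Plac1, Hand1, Gata3 and Krt7. This list was chosen with earlier results of these data known, so these counts are a description and no independent support. The summed level of the list was 625, 431 and 414 CPM, and no member was at 0 in any pool. Plac1, a placental protein gene, stood at 47.7, 25 and 19.6 CPM (2.44-fold). Hand1, a factor of trophoblast giant cells and also of lateral mesoderm, stood at 112, 66.9 and 57.6 CPM (1.94-fold). For both, pool 1 was far above pools 2 and 3, and pool 3 was the lowest. Ascl2, which maintains spongiotrophoblast, had 17, 12 and 11.5 CPM, Eomes 22.1, 17.9 and 18.5 CPM, Cdx2 10.1, 8.66 and 6.3 CPM and Elf5, a trophoblast stem cell factor, 3.4, 1.38 and 1.57 CPM. The list shares Gata3, Krt7 and Tfap2c with the surface ectoderm list and Cdx2, Eomes and Hand1 with the mesoderm list, so these genes alone do not tell the lineages apart.

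Further placental gene families were listed after their values had been seen. Their levels describe these pools and are no independent evidence of a lineage. Tpbpa, a secreted protein of the spongiotrophoblast, stood at 135, 152 and 129 CPM (139 ± 11.7, SD, n = 3 pools), and the related Tpbpb at 0.377, 0.381 and 0.394 CPM. In the prolactin family of placental hormones 9 of 16 genes were present, with Prl2b1 at 173, 189 and 143 CPM and Prl7d1 at 96.1, 67.3 and 45.2 CPM. Prl3b1, placental lactogen II of trophoblast giant cells, stood at 21.4, 18.8 and 15.9 CPM and Prl6a1 at 25.8, 27.8 and 21.5 CPM, while Prl2c5 had 30.5, 27.1 and 23.6 CPM. Tpbpa, Prl2b1 and Prl6a1 were highest in pool 2, so not every placental gene followed pool 1. Of 8 placental cathepsins 4 were present, with Ctsj at 173, 131 and 93.7 CPM, Ctsr at 73.2, 46.8 and 39.1 CPM, Ctsq at 44.6, 33.8 and 24.4 CPM and Cts7 at 2.32, 1.67 and 1.23 CPM. These 4 proteases had the order pool 1, pool 2, pool 3 from high to low. Psg29, a pregnancy-specific glycoprotein, had 47.3, 40.2 and 27.9 CPM and Syna, the retroviral envelope gene that fuses trophoblast cells, 30.5, 20.9 and 14.7 CPM. Of the 13 pregnancy-specific glycoprotein genes 2 were present, Psg29 and Psg22 (8.52, 6.09 and 4.97 CPM), and Psg17 and Psg19 were the next by counts. Members of these families share much of their sequence, so the split of reads between them is uncertain, and the 2 identifiers that share the description of placental lactogen I (Prl3d1) were left out of the list.

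**Figure D3:**
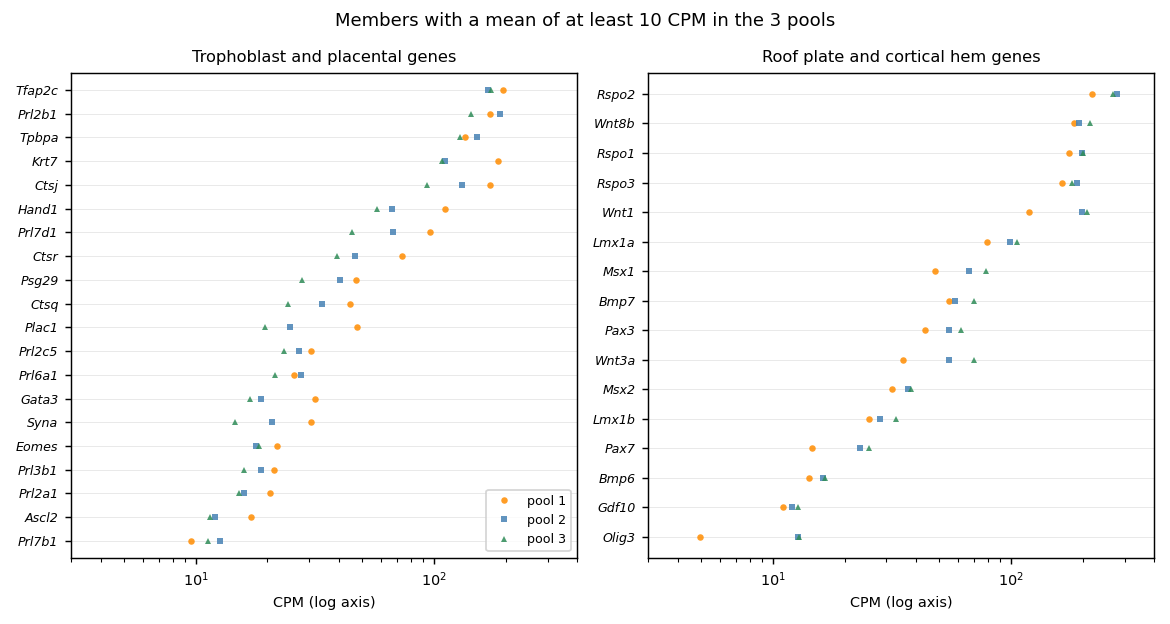
CPM (x axis, log scale) in the 3 pools of the trophoblast and placental genes (left) and the roof plate and cortical hem genes (right) with a mean of at least 10 CPM, 1 marker for each pool. Pool 1 lies to the right for most genes of the left panel, with Prl2b1, Tpbpa, Prl6a1 and Prl7b1 as exceptions, and to the left for all 16 genes of the right panel. The placental family lists and the roof plate list were made after the values had been seen.

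The 20 genes with the largest variation beyond counting error held 17 that were highest in pool 1 and 3 that were lowest there, and 15 of them differed by at least 2-fold. H19, the maternally expressed imprinted RNA, came first with 67.8, 20.3 and 27.5 CPM and a coefficient of variation beyond counting of 66.4%. Plac1 (48.4%), Hand1 (36.7%) and Prl7d1 (36.6%) were in the group, as was the imprinted transporter Slc22a18 (16.6, 7.47 and 7.28 CPM). The gap junction gene Gjb2 stood at 57.5, 34 and 25.5 CPM, the serpin Serpinb6b at 53.5, 30.7 and 24.3 CPM, the activin-binding protein Fstl3 at 129.8, 74.4 and 65.3 CPM and the ectonucleotidase Entpd1 at 48.4, 27.9 and 25.2 CPM. For each of the last 4 genes pool 1 was the highest and pool 3 the lowest. The same held for Hmgn5 (138, 86.1 and 67.3 CPM), which encodes a nucleosome-binding protein, Nup62cl (158, 95.1 and 78.9 CPM), Exoc3l4 (97.4, 52.8 and 50.4 CPM), Filip1l (17.2, 11.6 and 8.07 CPM), Fam90a1b (19.5, 12.1 and 8.27 CPM) and Anxa1 (22.7, 15.5 and 10.1 CPM). A predicted pseudogene (ENSMUSG00000092116, 16.1, 9.09 and 7.53 CPM) and a RIKEN cDNA gene (ENSMUSG00000087365, 45.6, 26.7 and 22.8 CPM) completed the set that was highest in pool 1. Olig3, a factor of the dorsal neural tube, was lowest in pool 1 at 4.96, 12.7 and 12.9 CPM (2.6-fold), as was the tight junction gene Cldn5 at 9.81, 17.4 and 22.4 CPM. A predicted gene (ENSMUSG00000103880) stood at 37.8, 44.5 and 78.1 CPM, with pool 3 far above the others.

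Imprinted genes, many of which are known for high transcription in placenta, were present in 19 of 20 cases and included 2 of the most counted genes after the leading 20. Peg10, a retrotransposon-derived gene needed for placenta formation, stood at 2419, 1515 and 1246 CPM (1.94-fold), and Igf2, the fetal growth factor, at 2168, 1515 and 1484 CPM (1.46-fold). Both were highest in pool 1. Cdkn1c, an inhibitor of cyclin-dependent kinases, had 605, 386 and 388 CPM and Phlda2, a placental growth restrainer, 92.1, 53.1 and 54.9 CPM, with the same pool on top. In all, 5 of 19 varied, 4 of them highest in pool 1 (H19, Peg10, Cdkn1c and Phlda2), against 3.03% of all genes. The paternally expressed Mest (887, 1098 and 1121 CPM), the maternally expressed Meg3 (296, 335 and 341 CPM) and the imprinted Grb10 (439, 493 and 525 CPM) were lowest in pool 1. Nnat, a gene of developing brain, varied with pool 1 the lowest (16.3, 25.7 and 21.5 CPM). Imprinting itself cannot be read from these counts, which do not separate the alleles.

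Some genes of the dorsal midline, picked with their values in view, were lowest in pool 1. In a roof plate and cortical hem list, also made after seeing values, 18 of 18 genes were present and pool 1 was the lowest in all 16 with a mean of at least 10 CPM, against 39.7% of all genes. Since the members were picked with their values in view, nothing is read from this count. Wnt1, a roof plate and midbrain signal, stood at 119, 198 and 208 CPM (1.75-fold) and Wnt3a, a signal of the hem and roof plate, at 35, 55 and 69.9 CPM (2.00-fold). In both, pool 1 was well under pools 2 and 3. Olig3, Pax7 (14.6, 23.2 and 25.2 CPM) and Msx1 were the other 3 of the 5 members of 16 that varied, against 3.03% of all genes. Lmx1a, the factor that specifies roof plate, had 79.4, 99.3 and 106 CPM, and each pool 1 value of the WNT agonists Rspo1 (175, 198 and 201 CPM), Rspo2 (219, 277 and 267 CPM) and Rspo3 (163, 189 and 181 CPM) was the lowest. Wnt8b, a marker of the cortical hem side of the forebrain, stood at 183, 193 and 215 CPM. The list median of the log2 ratio of pool 1 to the mean of the other pools was -0.29, against 0.77 for the trophoblast list and -0.01 for all genes. This median comes from the same picked members, so nothing is read from it either.

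Neural crest genes, which arise next to the roof plate, were present in 11 of 11 cases, and 7 of the 8 with a mean of at least 10 CPM were lowest in pool 1, against 39.7% of all genes. Tfap2b had 66.7, 96.5 and 97.9 CPM, Pax3 43.6, 55 and 61.8 CPM, Twist1 67.2, 76.6 and 78.3 CPM, Sox9 56.4, 57.8 and 67.3 CPM and Sox10 11.9, 13.1 and 16.8 CPM. The epithelial-mesenchymal factor Snai1 had 39.8, 35.7 and 41.5 CPM and Snai2 7.55, 7.24 and 6.1 CPM, and Ets1 had 24.7, 28.1 and 30.4 CPM and Sox8 6.63, 7.62 and 6.35 CPM. Pax7 was the 1 of the 8 that varied, against 3.03% of all genes. Pool 1 was also the lowest in 7 of 7 Sonic hedgehog and 10 of 12 WNT genes with such a mean. It was the lowest in 13 of 18 proneural and neuron, 12 of 19 neural plate and 4 of 11 anterior forebrain genes. A lower level in pool 1 was thus not particular to dorsal genes. The lower level of dorsal genes in pool 1 went with the higher level of trophoblast genes in the same library. With 3 pools no relation between them can be tested. Pool 1 was also the library with the most alignments in several places (33.7%), and the part of that in either difference was not tested.

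**Figure D4:**
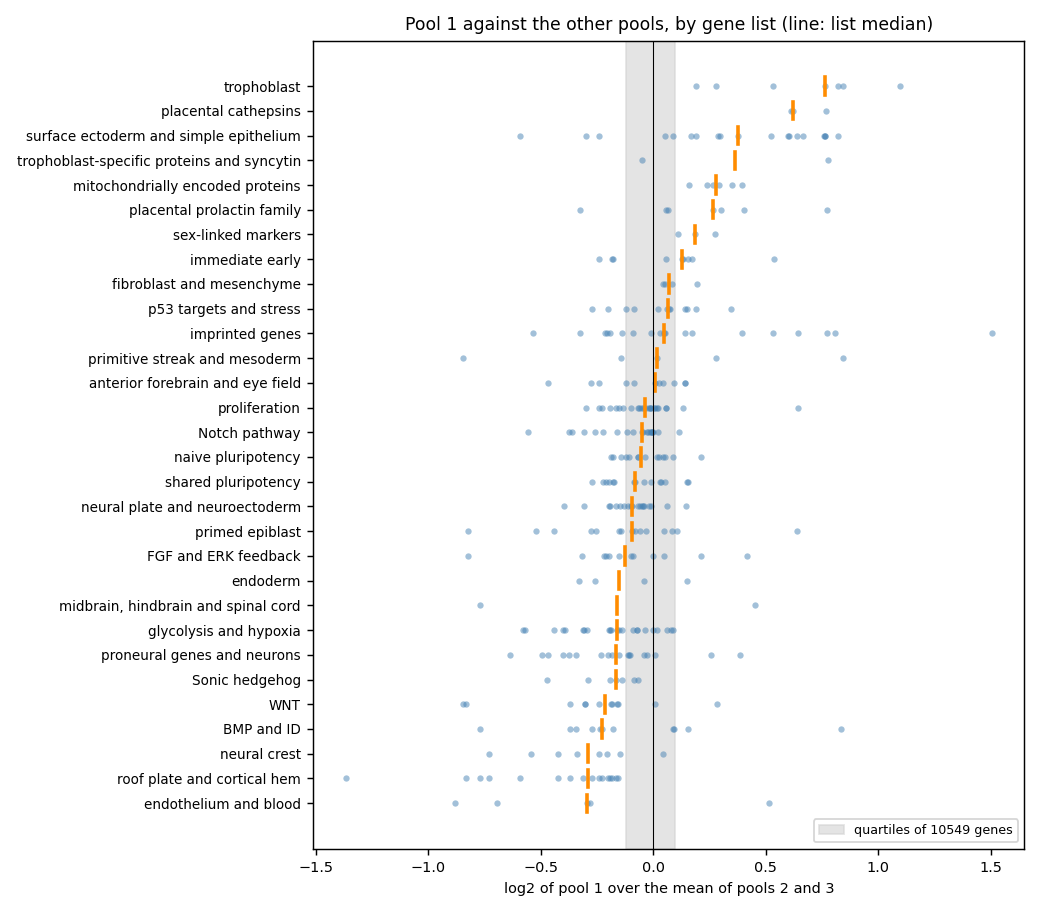
The log2 ratio of pool 1 to the mean of pools 2 and 3 (x axis) for each gene with a mean of at least 10 CPM, by list (y axis, ordered by median, lists with at least 2 such genes), 1 dot for each gene, with list medians as orange lines and the quartiles of 10549 genes in grey. The trophoblast list has the highest median and all its dots lie above 0, while all dots of the roof plate list lie below 0. All dots also lie above 0 for the placental cathepsin, mitochondrial, fibroblast and sex-linked lists, and below 0 for the Sonic hedgehog list. The roof plate list and the placental family lists were made after the values had been seen.

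Genes of neuronal differentiation were present beside those of progenitors. All 19 genes of the proneural and neuron list were present, with the bHLH factors Neurog1 at 18.3, 23.6 and 27 CPM and Neurog2 at 19, 19.9 and 18 CPM. The later factors Neurod1 (14.4, 15.5 and 17.2 CPM), Neurod4 (7.39, 8.28 and 7.92 CPM), Nhlh1 (24.6, 31.9 and 33 CPM) and Nhlh2 (28.5, 36 and 31 CPM) were present too. Tubb3, the neuronal beta-tubulin, stood at 321, 395 and 439.7 CPM, Stmn2 at 97.8, 126 and 122 CPM, Map2 at 139.6, 149 and 135 CPM, the growth cone protein gene Gap43 at 110.5, 119 and 126 CPM and Dcx at 42.9, 47.1 and 45.3 CPM. Tubb3 and Neurog1 were lowest in pool 1 and highest in pool 3. Reln (10.0, 15.6 and 15.7 CPM, 1.56-fold) was the 1 of 18 members that varied, against 3.03% of all genes. Tbr1, a factor of the earliest cortical neurons, stood at 15.4, 12.3 and 11.2 CPM.

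The Notch pathway, which holds neural progenitors back from differentiation, was present in full with 24 of 24 genes. Among the receptors Notch1 stood at 81.2, 92.2 and 109 CPM, Notch2 at 120.5, 121 and 121 CPM and Notch3 at 136, 141 and 164 CPM, while Notch4 was at 4.64, 6.00 and 6.35 CPM. Notch2, the mouse relative of the human gene tested in the study, was nearly identical in the 3 pools. Of the ligands, Dll1 had 74.8, 82.3 and 92.4 CPM, Jag1 78.8, 78.4 and 80.8 CPM, Jag2 26.8, 26.5 and 28.1 CPM, Dll4 25, 23.3 and 26.7 CPM and Dll3 9.33, 12.5 and 15 CPM. Dll3 was the only one of the 20 members with a mean of at least 10 CPM that varied (1.61-fold), against 3.03% of all genes. The targets Hes1 (39.5, 42.6 and 43.1 CPM), Hey1 (37, 39.1 and 35.2 CPM) and Nrarp (66.4, 69.2 and 66.4 CPM), the mediator Rbpj (72.8, 74.2 and 76 CPM) and the receptor glycosyltransferase Lfng (61.9, 73.1 and 85.9 CPM) were present, Lfng lowest in pool 1.

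In the BMP and ID list 14 of 15 genes were present. Id3, a target of BMP signalling, stood at 569.8, 684 and 789 CPM, Id2 at 282, 342 and 324 CPM and Id1 at 157, 183 and 196 CPM, all lowest in pool 1. The receptor gene Bmpr1a had 204, 202 and 179.7 CPM. Id4 went the other way with 43, 24.6 and 23.7 CPM, highest in pool 1, and the BMP inhibitor Nog stood at 9.49, 14 and 18.3 CPM (1.93-fold). These 2 were the members of 11 that varied, against 3.03% of all genes. In the WNT list 15 of 16 were present, and Wnt3 (12.3, 21.1 and 23 CPM) and Wnt3a were the 2 of 12 that varied, against the same 3.03%. Axin2, a feedback target of WNT signalling, stood at 105, 128 and 131 CPM, and the secreted WNT inhibitors Sfrp1 and Sfrp2 at 118, 112 and 122 CPM and 180.3, 191 and 219 CPM. FGF genes were present in 14 of 16 cases, with Fgfr1 at 234, 268 and 278 CPM, Fgfr2 at 132, 148 and 155 CPM, Fgfr3 at 62.2, 68.7 and 75.2 CPM and the feedback phosphatase Dusp6 at 108, 117 and 112 CPM. Sonic hedgehog genes included the signal transducer Smo (159, 186 and 203 CPM), the factor Gli3 (134, 135 and 148 CPM) and Gas1 (233, 237 and 252 CPM), all lowest in pool 1. Of 10 such genes 8 were present, with the receptor gene Ptch1 at 52.4, 59.5 and 60.4 CPM and the co-receptor Boc, the largest ratio of the list, at 75.4, 98.4 and 111 CPM (1.47-fold), while the ligand Shh (1.4, 1.29 and 0.591 CPM) was below 1 CPM in pool 3 and was not called present.

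Markers of other tissues were mixed. Of 16 primitive streak and mesoderm genes 7 were present, and T (1.02, 0.476 and 0.492 CPM), the factor that defines the streak, was not among them, nor were Mixl1, Mesp1, Mesp2, Tbx6, Gsc, Meox1 and Tbx1. Those present were Hand1, Wnt3, Eomes and Cdx2, which other lists also hold, and Kdr (26.5, 25.2 and 27.3 CPM), Foxc1 (33.9, 39 and 36 CPM) and Foxc2 (1.78, 1.24 and 1.67 CPM). Of 18 endoderm genes 6 were present, and Gata4, Gata6, Foxa1, Foxa2, Hnf4a, Afp and Ttr were among those that were not. Sox17 stood at 3.61, 3.81 and 3.79 CPM and Sox7 at 1.35, 3.09 and 3.94 CPM. The endoderm members that were present, such as Apoe (168, 169 and 178 CPM), Cxcr4 (49.9, 60.0 and 59.5 CPM), Pdgfra (55.7, 49.8 and 50.6 CPM) and Dab2 (26.3, 34.4 and 31.8 CPM, the largest ratio of the list at 1.31-fold), are also known from other cells. Among endothelial and blood genes 9 of 10 were present. Cdh5, known as VE-cadherin, stood at 310.1, 235 and 199.5 CPM and was highest in pool 1, while Pecam1 stood at 42, 50.8 and 51.3 CPM, Cd34 at 17.3, 20.2 and 22.3 CPM and the embryonic globins Hba-x at 25.8, 44.2 and 51 CPM and Hbb-bh1 at 8.9, 16.3 and 12.5 CPM, lowest in pool 1. The blood factors Gata1 (1.51, 1.76 and 1.13 CPM) and Tal1 (1.67, 2.00 and 1.97 CPM) and the endothelial receptors Tek (2.37, 3.05 and 2.76 CPM) and Tie1 (4.85, 6.24 and 9.4 CPM) were low, and the white blood cell gene Ptprc had 1, 0 and 2 counts. Of 12 fibroblast and mesenchyme genes 11 were present, and the collagen Col3a1 stood at 216, 208 and 208 CPM. The mesenchymal factor Prrx1 (39.8, 39.6 and 37.8 CPM) and the receptor Pdgfrb (37.5, 32.7 and 32.8 CPM) were level, and Col1a2 (27.2, 23.5 and 27.9 CPM) had the largest ratio of that list at 1.18-fold.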

How the data were processed

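Gene-level counts were analysed for 3 libraries of polyadenylated RNA, the EV pools of mouse day 6 organoids. HTSeq 0.6.1p1, DESeq2 2.11.39, STAR 2.4.0, Trimmomatic 0.36, Bowtie2 2.3.3.1 and the build GRCm38 (mm10) are listed in the submitters' processing notes, with no role attached. How the counter used strand is not given in these sources, which leaves genes overlapped on the opposite strand uncertain. The deposited values are whole-number counts and were used as they stand. Summary lines of the counter, not being genes, did not enter library sizes: 6.04% to 6.25% of alignments lay outside genes, 0.769% to 0.901% were ambiguous, 4.42% to 5.44% were of low quality and 26.6% to 33.7% fell in several places. The authors' deposited table also holds scaled values per library, whose unit its header does not name and which were treated as a score and used only for the NOTCH2NL values and to check columns: each follows the raw column of its own name (SD of the log2 ratio at most 0.000734, against at least 0.145 for other columns).

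CPM were computed with TMM factors over the 3 libraries by edgeR 4.0.16 in R 4.3.3, and tables with Python 3.11.15. Mouse genes were matched by hand to symbols through the description column of the authors' deposited table (414 of 415 symbols in 27 lists, and 58 of 58 in 5 lists added after the values had been seen). Members and lists were chosen with earlier results of these data known. The text names the 20 genes with the highest mean CPM, of each list the 4 with the most counts, the defining transcription factors and the member with the largest ratio between pools, and the 20 genes with the largest coefficient of variation beyond counting error among those with a mean of at least 10 CPM. That coefficient is the square root of the squared coefficient of variation less the Poisson part, and its script was tested on simulated data. A gene without a symbol in the lists is named by identifier, and a few list members are not reported here. With 1 group there is no contrast, so no test was made. No mouse genome, gene lengths or sequences were used here, so no coordinates are given. Alternatives were library size alone, DESeq2 1.42.0 size factors, other thresholds and leaving out each pool.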

Additional observations from a re-analysis of the deposited data

How the results depend on the processing

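Presence was stable to the scaling: 14471 genes were present with TMM factors, 14492 with library size alone and 14471 with DESeq2 size factors. At 0.5 CPM in every pool 15812 were present and at 2 CPM 13180. Leaving out a pool, which can only keep or raise a count of present genes, gave 14600 to 14692. The naive, shared pluripotency, primed epiblast, neural plate and surface ectoderm counts were the same as in all 3 pools (18, 16, 18, 20 and 21). For the naive, shared pluripotency and neural plate lists, present in full, no other outcome was possible. At 2 CPM the primed epiblast list lost 1 member (17) and the neural plate list 1 (19). The share of the 20 leading genes was 4.88% of all alignments that fell in 1 place and 4.89% of counts outside mitochondrially encoded genes, the latter over its nuclear members, and 5.83% to 6.01% when a pool was left out. The mitochondrial share was 0.398% once the leading genes left numerator and denominator, and 1.36% to 1.60% without 1 of the pools. The number of varying genes was 332 with library size alone and 335 with DESeq2 size factors, 1805 with a mean of at least 1 CPM, 85 with a mean of at least 50 CPM and 18 at 2-fold. Leaving out a pool gave 5 to 288 varying genes: 5 without pool 1, 288 without pool 2 and 150 without pool 3. Fewer pools leave fewer chances to differ, and why pool 1 stands apart was not tested. The biological coefficient of variation was 9.07% with no filter, 8.96% with library size alone, and 6.34% to 11.6% when a pool was left out. Of the 20 most variable genes, 15 were shared with a ranking by edgeR's tagwise dispersion and 19 with one on library size alone. Among 56 named genes that varied, all 56 did so under both other scalings, 52 without pool 2, 38 without pool 3 and 3 without pool 1 (Anxa1, mt-Nd5 and ENSMUSG00000103880). Mean levels of named genes moved by less than 1 SD under both scalings and with each pool left out. With 3 pools the latter holds by arithmetic alone, so nothing is read from it. No paired analysis was possible because a single group is described and no result compares groups. The planned ranking by coding length was not run, since no mouse gene lengths were used here. At low counts the ratio between pools is limited by depth, which is why variation was read from a mean of 10 CPM upward.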

Other observations

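Genes of dividing cells were at like levels in the 3 pools. All 25 genes of the proliferation list were present, with Mki67, the antigen of cycling cells, at 369, 377 and 367 CPM, Top2a at 670.5, 719 and 680.2 CPM and the replication helicase subunit Mcm2 at 381, 384 and 407 CPM in pools 1, 2 and 3. The summed level was 6515, 6639 and 6645 CPM. The cyclin gene Ccnd2 stood at 712, 768 and 814 CPM and the ribonucleotide reductase gene Rrm2 at 356, 422 and 454 CPM, both lowest in pool 1. Cdkn1c, which restrains the cycle and is also imprinted, was the 1 of 25 members whose highest pool was at least 1.5 times the lowest (1.56-fold), against 3.03% of all genes.

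Of 19 genes of p53 and stress responses 18 were present, and 0 of 12 with a mean of at least 10 CPM varied, which at 3.03% of all genes is no result about this list. The chaperone Hspa5 of the endoplasmic reticulum stood at 612, 599.5 and 568 CPM, and Hmox1, an oxidative stress gene, at 141, 114 and 108 CPM with the largest ratio of the list (1.3-fold). The p53 target Cdkn1a stood at 52.4, 56.6 and 57.4 CPM and Ccng1 at 173, 158 and 145 CPM. Atf4, the factor of the integrated stress response, had 149.7, 173 and 171 CPM and Txnip, a glucose-responsive gene, 165, 190.1 and 209 CPM. Of 15 immediate early genes 11 were present, with Fos at 10.1, 10.3 and 7.14 CPM, Jun at 55.8, 52.2 and 55.1 CPM, Myc at 53.4, 45.9 and 50.1 CPM and Ier2 at 49.8, 52.4 and 60.9 CPM, and Klf6 (107, 79.8 and 67.4 CPM, 1.58-fold) was the 1 of 9 with a mean of at least 10 CPM that varied.

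Of 10 matched genes of the germ cell and 2-cell-like list 7 were present. Dppa3, which the naive list also holds, was the 1 member with a mean of at least 10 CPM (27.8, 32.7 and 24.5 CPM). The others were lower, with Prdm1 at 9.44, 9.09 and 8.42 CPM, Ddx4 at 4.31, 3.62 and 3.35 CPM and Dazl at 5.01, 4.76 and 4.63 CPM, while Zscan4c had 3, 2 and 6 counts in the 3 pools. The Y-linked genes Eif2s3y (75.1, 73 and 66 CPM), Ddx3y (33.6, 31.5 and 27.6 CPM) and Uty (29.1, 27.1 and 21 CPM) were present in all pools, and Xist stood at 4.64, 2.81 and 2.41 CPM. Uty had the largest ratio of these (1.39-fold), and Kdm5d was not present.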
